A study of Oryctolagus cuniculus with 16 samples.

Results

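Expression of the integrins, the laminins and the proteins of focal adhesions was examined in the wall of the rabbit basilar artery (BA) and basilar terminus (BT) 24 h after ligation of both common carotid arteries. Genes were taken by symbol: the integrin alpha and beta subunits, the laminin alpha, beta and gamma chains, the talins, parvins and tensins, and VCL, ZYX, PXN, ILK and PTK2. Of 13788 gene symbols in the count matrix, 44 matched, and 43 of these had a read in at least 1 library, out of 11925 symbols with a read. TNS4 had none. ITGA9, LAMA5, LAMC3, PARVB, PARVG and TNS3 were not analysed here.

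All animals were female New Zealand white rabbits. Sham-operated rabbits 3 and 4 kept normal flow, and rabbits 5 and 6 had bilateral carotid ligation, which raises flow through the BA. Intima and media were cut apart by laser microdissection at each location in each rabbit, which gave 16 libraries, each holding strips of 1 layer at 1 location from several sections of 1 animal. With 2 rabbits per flow group, a p-value for ligation rests on a spread estimated from 2 animals per group, with information shared over genes. Layers and locations were compared within the 4 rabbits, so those p-values rest on differences inside each animal.

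Integrins are receptors built of an alpha and a beta subunit that span the cell membrane, bind matrix proteins outside, and tie to the actin cytoskeleton inside through talin, vinculin and other proteins of the focal adhesion. Laminins are trimers of an alpha, a beta and a gamma chain and are the main cell-binding proteins of basement membranes, which surround smooth muscle cells and underlie the endothelium. In arteries these complexes carry force between cell and matrix and are known to take part in sensing flow and stretch.

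The layers were first checked against cell markers. The summed expression of 12 endothelial markers with a read, given as read counts scaled to a common library size (CPM, with trimmed mean of M values or TMM factors), lay between 1247 and 6005 CPM in the 8 intimal libraries and between 464 and 1696 CPM in the 8 medial libraries. ESAM had the most reads of them in every medial library, and PECAM1 was higher in the intima of every rabbit and location. The sum of 7 smooth muscle markers was 70569 to 120912 CPM in the media but also 11438 to 77204 CPM in the intima, most of it ACTA2, so every intimal library held smooth muscle RNA. Markers of other cells were high in libraries of sham rabbit 3. Its BT intima had 1131 CPM of leukocyte and macrophage markers, the highest of the 16 libraries, against 143 CPM in sham rabbit 4 and 126 and 65.5 CPM in the ligated rabbits, and its BA intima and BA media had 528 and 349 CPM. The sum in the BA media of sham rabbit 4 was 280.4 CPM. The leptomeningeal and fibroblast markers of rabbit 3 summed to 21214 CPM in the BT intima and 18390.2 CPM in the BA media, the highest values of the 16 libraries. Because these are bulk strips, fewer cells of a type and less RNA per cell cannot be told apart.

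The 43 genes took up 0.335% to 0.727% of the reads of a library. Total counts on named genes were 5211886 to 17686105 in the intima and 2154863 to 11219236 in the media, and 3 counts were worth 0.169 to 1.58 CPM. Of the 43 genes, 39 passed the filter on low values (a mean above 1 CPM in at least 1 group) in at least 1 comparison and 33 passed it in all 4 comparisons of ligated with sham rabbits. The 4 that were never tested were ITGB6, with 2 counts in all, and the leukocyte and platelet subunits ITGA2B, ITGAL and ITGAX, with no more than 10 counts in any library. The plot of all members by library sets each gene against its own mean.

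**Figure D1:**
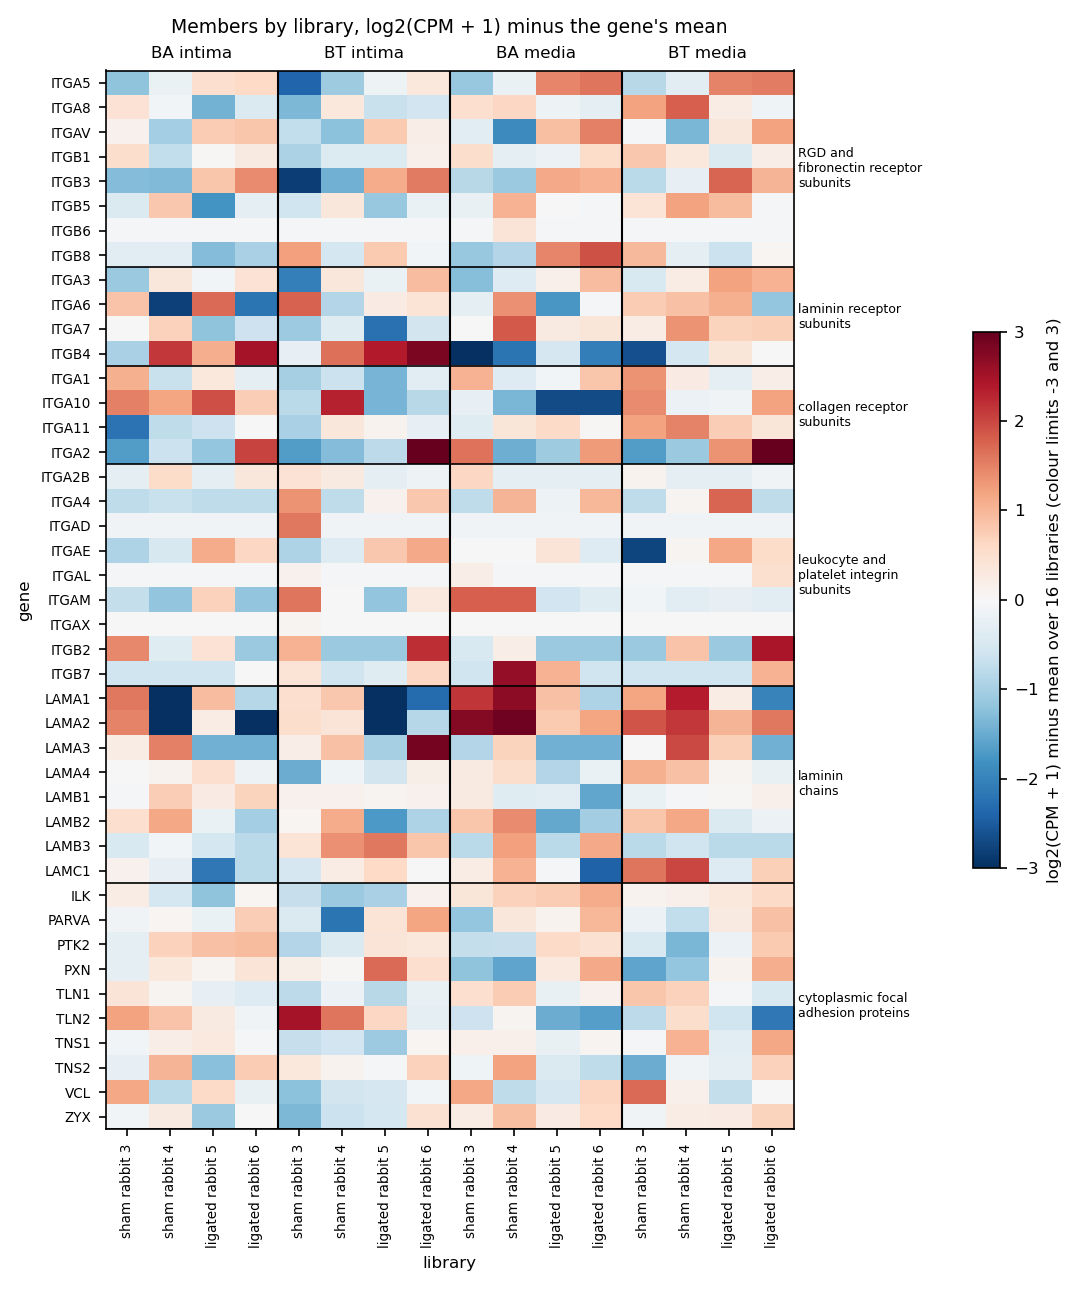
Expression of the 43 genes in the 16 libraries, as log2(CPM + 1) minus the mean of the gene over all libraries. Rows are genes grouped by role, columns are libraries grouped by location and layer, red is above and blue below the mean, and the colours end at -3 and 3. ITGB3 and ITGA5 are redder in the ligated than in the sham columns of each block, and LAMB2 is bluer.

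Across both layers and locations, 3 integrin subunits were higher and 1 laminin chain was lower in every ligated than in every sham library. ITGB3, the beta subunit of the vitronectin receptor, ranged from 30.8 to 187 CPM (median 96.3) in the 8 sham libraries and 401 to 747 CPM (median 487) in the 8 ligated libraries. ITGAV, the alpha subunit it pairs with in the vessel wall, ranged from 20.8 to 88 CPM (median 43.9) in the 8 sham libraries and 93.4 to 230.4 CPM (median 142) in the 8 ligated libraries. ITGA5, the alpha subunit of the classical fibronectin receptor, ranged from 59.2 to 271 CPM (median 163) in the 8 sham libraries and 282 to 958 CPM (median 669) in the 8 ligated libraries. LAMB2, a laminin beta chain of muscle and vascular basement membranes, ranged from 138 to 362 CPM (median 266) in the 8 sham libraries and 39.9 to 119 CPM (median 67.4) in the 8 ligated libraries. Among the 7930 genes tested in all 4 ligation comparisons, 1.44% were higher and 0.946% lower without overlap, against 3 and 1 of the 33 members. The 8 libraries of a flow group came from 2 rabbits and are not 8 replicates, and this way of sorting the members was chosen after their values were seen.

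**Figure D2:**
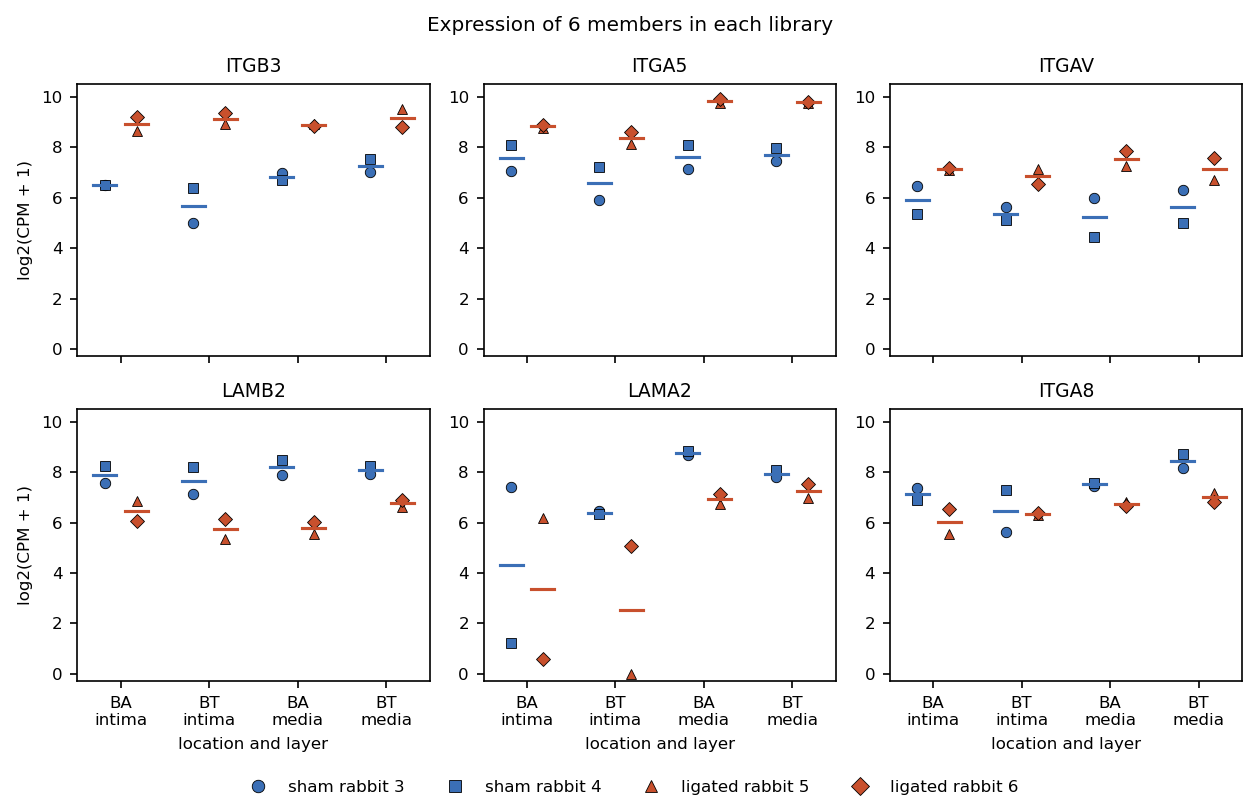
Expression of ITGB3, ITGA5, ITGAV, LAMB2, LAMA2 and ITGA8 in each library, as log2(CPM + 1), by location and layer. Each symbol is 1 rabbit, blue for sham and orange for ligated, and each bar is the mean of 2 rabbits on that scale. ITGB3, ITGA5 and ITGAV sit higher and LAMB2 lower in the ligated rabbits at all 4 places, and LAMA2 scatters widely in the intima.

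In the BA media, 3 of the 37 members tested passed q below 0.05: ITGB3 and ITGA5 rose and LAMB2 fell. ITGB3 went from 126 and 103 CPM in the sham to 494 and 462 CPM in the ligated rabbits (log2 fold change 2.08 ± 0.33 SE, q = 0.0366). ITGA5 measured 141 and 271 CPM in sham rabbits 3 and 4 and 863 and 958 CPM in ligated rabbits 5 and 6 (log2 fold change 2.17 ± 0.38 SE, q = 0.0481). LAMB2 measured 239 and 362 CPM without ligation and 45.4 and 64.2 CPM with ligation (log2 fold change -2.43 ± 0.40 SE, q = 0.044). The sham and ligated rabbits did not overlap in any of the 3, and for ITGB3 the gap between the groups was several times the difference within them. The 3 genes were picked by this same test, so their separation is not further evidence. Of all 8800 genes tested here, 0.807% passed this threshold, against 8.11% of the members. At an unadjusted p below 0.05, 6 members were higher and 4 lower, or 16.2% and 10.8%, against 6.62% and 6.98% of all genes. The median log2 fold change was -0.26 over the members and -0.15 over all genes. With 1 rabbit left out, the median of the members ran from -0.73 (without rabbit 6) to -0.06 (without rabbit 5). That of all genes ran from -0.23 (without rabbit 5) to -0.02 (without rabbit 4).

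These 3 calls rest on all 4 rabbits. Without any 1 of them, no member passed, although the directions held: q was 0.144 to 0.508 for ITGB3, 0.144 to 0.56 for ITGA5 and 0.144 to 0.509 for LAMB2. Each of those fits has 1 animal in an arm, which is assumed to vary like the other pair. Over all rabbits, the newer quasi-likelihood form of edgeR gave q = 0.0753, 0.0917 and 0.0917, and with scaling by library size alone ITGA5 had q = 0.0551.

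Other subunits that bind RGD-containing ligands such as fibronectin and vitronectin did not pass the threshold in the BA media. ITGAV measured 63.2 and 20.8 CPM without ligation and 151 and 230.4 CPM with ligation (log2 fold change 2.19 ± 0.57 SE, q = 0.14). ITGB8, which pairs with ITGAV and takes part in activating latent TGF-beta, measured 4.34 and 5.4 CPM (sham) and 31.1 and 43.2 CPM (ligated) (log2 fold change 2.95 ± 0.71 SE, q = 0.113). ITGB1, the partner of most alpha subunits, measured 1053 and 604 CPM (sham) and 648 and 1065 CPM (ligated), with sham and ligated rabbits interleaved (log2 fold change 0.06 ± 0.38 SE, q = 0.965). ITGB5, another partner of ITGAV, had 69.1 and 166 CPM (sham) and 80.2 and 77.8 CPM (ligated), again without separation. The group of 7 tested RGD and fibronectin receptor subunits held 4 members higher at p below 0.05 and none lower, against 6.62% and 6.98% of all genes.

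Of the laminin chains all 8 were tested in the BA media, and LAMB2 alone passed q below 0.05. None was higher and 4 were lower at p below 0.05 (LAMB2, LAMA2, LAMA1 and LAMA4), against 6.62% and 6.98% of all genes. LAMA2, the alpha chain of the muscle laminin, measured 410.4 and 459 CPM without ligation and 104 and 138 CPM with ligation, and its change did not pass the threshold (log2 fold change -1.83 ± 0.33 SE, q = 0.0545). It passed with scaling by library size alone (q = 0.0408), and DESeq2 called LAMA2, LAMA1, ITGAV and ITGB8 beside the 3 genes above. LAMA1 measured 53.3 and 78.8 CPM (sham) and 21.6 and 5.5 CPM (ligated) (log2 fold change -2.31 ± 0.72 SE, q = 0.216), and LAMA4, an alpha chain of endothelial and smooth muscle laminins, 347 and 417 CPM (sham) and 156 and 251 CPM (ligated) (log2 fold change -0.89 ± 0.36 SE, q = 0.327). LAMC1, the gamma chain of most vascular laminins, measured 5.28 and 10.1 CPM (sham) and 4.22 and 0 CPM (ligated) (-1.92 ± 1.83 SE, q = 0.671). LAMB3 was at 0 in sham rabbit 3 and ligated rabbit 5, with a fitted change near 0. LAMA3 was at 0 in both ligated rabbits and had 5 and 20 counts in the sham rabbits.

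Markers of leptomeningeal cells and fibroblasts differed between the flow groups as well. Their sum over 10 genes, all 10 of which had a read in each of these libraries, was 18390.2 and 12455 CPM in the sham and 4636 and 4039 CPM in the ligated BA media, and OGN had the most reads in all 4. Of the 10, 8 had a negative and 2 a positive log2 fold change, 7 were lower at p below 0.05, and 2 passed q below 0.05: OGN (-1.84 ± 0.25 SE, q = 0.0219) and DCN (-1.72 ± 0.30 SE, q = 0.0481), proteoglycans of connective tissue. In the BT media the sum was 10885 and 15031 CPM in the sham and 3135 and 4616 CPM in the ligated rabbits, with 8 changes negative and 2 positive, 4 of 10 lower and 1 higher at p below 0.05, OGN past the threshold (-2.75 ± 0.31 SE, q = 0.00116), and, in ligated rabbit 6, DCN with the most reads and PTN and SLC13A4 at 0. In the intima it was 9060.2, 3279.8, 3587 and 679 CPM in the BA and 21214, 4943, 268 and 548 CPM in the BT of rabbits 3, 4, 5 and 6. LUM, DCN, PDGFRA, PTN and SLC13A4 were all at 0 in the BT intima of ligated rabbit 5, the library in which LAMA2 was at 0 too. Of all genes, 6.98% were lower at p below 0.05 and 0.807% passed q below 0.05 in the BA media. In the BT media these shares were 7.99% and 2.35%. The part of these cells in the laminin changes was not tested.

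**Figure D3:**
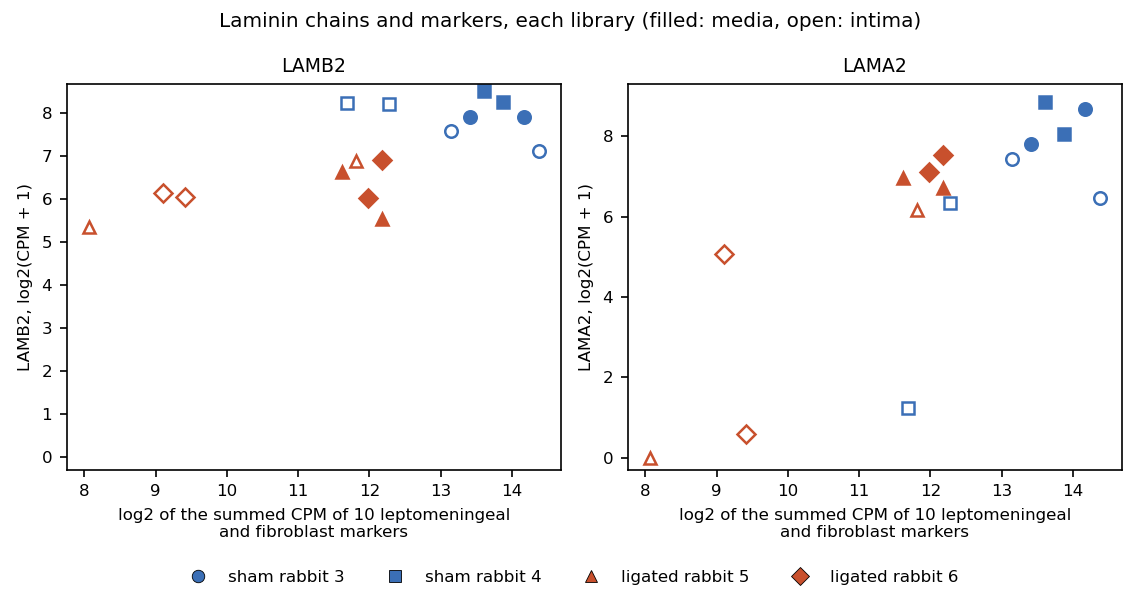
LAMB2 (left) and LAMA2 (right), as log2(CPM + 1), against the log2 of the summed CPM of 10 leptomeningeal and fibroblast markers, 1 symbol per library. Filled symbols are media, open symbols intima, blue sham and orange ligated. The 4 ligated medial libraries lie between 3135 and 4636 CPM of markers and the 4 sham medial libraries between 10885 and 18390.2 CPM. LAMB2 and LAMA2 are both lower in the ligated medial libraries.

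In the BT media, 3 of the 35 members tested passed: ITGA5 and ITGB3 rose and ITGA8 fell. ITGA5 went from 176 and 249 CPM in the sham to 871 and 899.7 CPM in the ligated rabbits (log2 fold change 2.07 ± 0.32 SE, q = 0.00676), and ITGB3 from 128 and 187 CPM in the sham to 747 and 453 CPM in the ligated rabbits (1.94 ± 0.36 SE, q = 0.0171). The 2 ligated rabbits were close together in ITGA5 and further apart in ITGB3, and neither gene overlapped with the sham rabbits. Both genes were picked by this test, so their separation is not further evidence. ITGA8, an alpha subunit that pairs with ITGB1 and is typical of contractile smooth muscle, measured 286 and 427 CPM in sham rabbits 3 and 4 and 145 and 112 CPM in ligated rabbits 5 and 6 (log2 fold change -1.46 ± 0.35 SE, q = 0.0493). Of the 7 RGD and fibronectin receptor subunits tested in the BT media, 3 were higher and 1, ITGA8, was lower at p below 0.05, and their median log2 fold change was -0.33. Of all 8783 genes tested here, 2.35% passed, against 8.57% of the members. At an unadjusted p below 0.05, 14.3% of the members were higher and 20% lower, against 7.96% and 7.99% of all genes. The median log2 fold change of the members was -0.12, and 0.05 with scaling by library size alone, so no direction is given for them as a group.

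ITGA5 kept its call without each of the 4 rabbits (q from 1.48e-05 to 0.0452) and in the newer form of edgeR. ITGB3 lost its call without ligated rabbit 5, the rabbit with the highest ITGB3. ITGA8 lost it without rabbit 4, 5 or 6 (q = 0.0603, 0.122 and 0.374), with relative log expression scaling (q = 0.051), with library size alone (q = 0.0767) and in the newer form (q = 0.0728).

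The laminin chains of the BT media had log2 fold changes below 0 in 6 of 7 tested, 3 of them at p below 0.05, against 7.99% of all genes lower, and none past q below 0.05 by the edgeR test. DESeq2 called LAMB2, LAMA4 and LAMA1 (adjusted p = 0.00445, 0.0143 and 0.0475), and edgeR without the filter called LAMB2 and LAMA1. LAMA1 had the lowest of these changes, with 27.3 and 61.9 CPM (sham) and 13.4 and 2.1 CPM (ligated) (-2.57 ± 0.87 SE, q = 0.166). LAMB2 measured 239.7 and 302 CPM without ligation and 98.2 and 119 CPM with ligation (log2 fold change -1.31 ± 0.34 SE, q = 0.0732). LAMA4 went from 599.9 and 530.3 CPM in the sham to 307 and 249 CPM in the ligated rabbits (-1.01 ± 0.30 SE, q = 0.117). LAMA2 measured 224 and 267 CPM (sham) and 124 and 183 CPM (ligated) (-0.67 ± 0.35 SE, q = 0.371). ITGA2, an alpha subunit of a collagen receptor, was hardly detected in sham rabbits, with 0 and 3 counts, and measured 7.17 and 25.9 CPM in the ligated rabbits (q = 0.0646). ITGA2 was also detected in rabbit 6 elsewhere, with 12 and 28.3 CPM in the BA and BT intima and 6.81 CPM in the BA media, where sham rabbit 3 had 8.86 CPM.

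Smooth muscle markers summed to 105505 and 77772 CPM in the sham and 77089 and 70569 CPM in the ligated BT media. Among the 7 of them, MYH11 (-1.70 ± 0.33 SE, q = 0.0221) and LMOD1 (-1.50 ± 0.34 SE, q = 0.0438), proteins of the contractile apparatus, fell, and 3 of the 7 were lower and 1 higher at p below 0.05. DES, or desmin, measured 656 and 1180 CPM (sham) and 1158 and 2609 CPM (ligated), and SMTN, or smoothelin, 384 and 406 CPM (sham) and 539 and 527 CPM (ligated). ACTA2 had the most reads of the list in each library. Of all genes in the BT media, 7.99% were lower and 7.96% higher at p below 0.05. Whether the change of the smooth muscle markers and that of ITGA8 are linked was not tested. TLN1, the talin that couples integrin tails to actin, measured 1112 and 1004 CPM (sham) and 607 and 452 CPM (ligated) (-0.99 ± 0.30 SE, q = 0.122), and VCL, which binds talin and actin, 1162 and 395 CPM (sham) and 219 and 355 CPM (ligated) (-1.42 ± 0.45 SE, q = 0.139). Neither passed the threshold by the edgeR test with the filter, and DESeq2 called both (adjusted p = 0.0129 for TLN1 and 0.0184 for VCL), as did edgeR for VCL without it (q = 0.00135).

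In the intima no gene passed q below 0.05 in either location, so 0% of 8974 genes in the BA and 0% of 9273 genes in the BT were called, and the same held for the 35 and 38 members tested. ITGB3 had the smallest p of the members at both places. In the BA intima it measured 89.9 and 89 CPM in sham rabbits 3 and 4 and 401 and 593 CPM in ligated rabbits 5 and 6 (log2 fold change 2.47 ± 0.47 SE, q = 0.236). In the BT intima it went from 30.8 and 81.8 CPM in the sham to 481 and 654 CPM in the ligated rabbits (log2 fold change 3.34 ± 0.59 SE, q = 0.247). Both sham rabbits were nearly equal in the BA, and in both locations each ligated rabbit exceeded each sham rabbit by more than the sham rabbits differed. ITGB3 was picked by its p-value in these libraries, so that order is not further evidence. For ITGB3, DESeq2 gave adjusted p = 5.88e-06 in the BA and 3.17e-06 in the BT. The edgeR quasi-likelihood test without the filter on low values gave q = 0.000916 in the BA and 0.000801 in the BT. The missing call of ITGB3 in the intima thus depends on the filter and the test. Leaving out sham rabbit 4 gave log2 fold changes of 2.44 in the BA and 4.17 in the BT. In the BT intima, without the library of sham rabbit 3, the log2 fold change of ITGB3 was 2.80 (q = 0.139), of LAMB2 -2.41 and of TLN2 -1.38. Endothelial markers summed to 1247 and 5598 CPM in the sham and 3178 and 3819 CPM in the ligated BT intima, so the sums overlapped. Of the 12 markers 4 were nevertheless higher and 1 lower at p below 0.05, or 33.3% and 8.33%, against 4.3% and 7.33% of all genes. None passed q below 0.05. TEK, an endothelial receptor kinase, measured 80.1 and 102 CPM (sham) and 347 and 277 CPM (ligated), and CDH5, the endothelial cadherin, 12.6 and 17.4 CPM (sham) and 82.6 and 54.2 CPM (ligated). KDR, the main VEGF receptor, was at 15.6 and 5.86 CPM (sham) and 0.518 and 0 CPM (ligated), and VWF overlapped, with 451 and 2574 CPM (sham) and 241 and 673 CPM (ligated). The part of endothelial RNA in these differences was not tested.

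At an unadjusted p below 0.05 in the BA intima, 5.71% of the members were higher and 8.57% lower, against 2.52% and 3.43% of all genes. In the BT intima the shares were 15.8% and 7.89% of the members against 4.3% and 7.33% of all genes. DESeq2 called 1 member in the BA intima, ITGB3, and 4 in the BT intima, ITGB3, ITGA2, LAMB2 and TLN2. ITGA5 in the intima measured 134 and 269.9 CPM (sham) and 440.5 and 474 CPM (ligated) in the BA and 59.2 and 149.6 CPM (sham) and 282 and 389.6 CPM (ligated) in the BT (log2 fold change 1.19 and 1.69, q = 0.807 and 0.341). ITGAV measured 88 and 39.5 CPM (sham) and 137 and 144 CPM (ligated) in the BA and 48.3 and 34 CPM (sham) and 141 and 93.4 CPM (ligated) in the BT, with log2 fold changes of 1.13 and 1.51.

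In the BA intima the tested laminin chains had 2 positive and 5 negative log2 fold changes. In the BT intima 4 were positive and 4 negative, with a median of 0.20. At p below 0.05, 2 were lower and none higher in each, against 3.43% (BA) and 7.33% (BT) of all genes lower. LAMB2 was the lower member with the smallest p in the intima of both locations. It measured 189 and 299 CPM without ligation and 116 and 65 CPM with ligation in the BA (log2 fold change -1.42 ± 0.51 SE, q = 0.756) and 138 and 292 CPM without ligation and 39.9 and 69.8 CPM with ligation in the BT (-1.97 ± 0.55 SE, q = 0.293). TLN2, the second talin, had 156 and 84.2 CPM without ligation and 41.8 and 22 CPM with ligation in the BT intima (-1.90 ± 0.57 SE, q = 0.32) and 63.1 and 49.4 CPM without ligation and 32.7 and 24.8 CPM with ligation in the BA intima (-0.97 ± 0.58 SE, q = 0.862). LAMA3, an alpha chain of epithelial laminins, had 38 and 90 counts in the sham BA intima and no count in the ligated BA intima, which makes it at least 10.6-fold lower against a floor of 3 counts per library. That order did not hold in the BT intima, where LAMA3 was highest in ligated rabbit 6, at 18.7 CPM against 2.1 and 3.95 CPM in the sham rabbits.

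ITGB3 also pairs with ITGA2B on platelets, so platelet transcripts were looked at beside it. ITGA2B had 37 counts in all 16 libraries together and at most 0.848 CPM in any of them. GP9 and GP1BA, subunits of the platelet receptor for von Willebrand factor, were at 0 in all 8 medial libraries, in which ITGB3 ranged from 103 to 747 CPM. In the intima GP9 was highest in the sham rabbit 4 libraries, at 3.14 CPM in the BA and 1.17 CPM in the BT, and at 0.171 CPM or less in the ligated rabbits. TREML1, another platelet receptor, was likewise at 0 in the media. In the intima it measured 0 and 1.49 CPM (sham) and 0 and 1.54 CPM (ligated) in the BA and 0 and 2.2 CPM (sham) and 5.36 and 0 CPM (ligated) in the BT, highest in a ligated rabbit at both. The sum of the 4 platelet markers with a read was almost wholly TUBB1, at 131 to 424 CPM over the 16 libraries, and at each place it was lowest in ligated rabbit 6. The part of platelet RNA in the ITGB3 values of the intima was not tested.

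**Figure D4:**
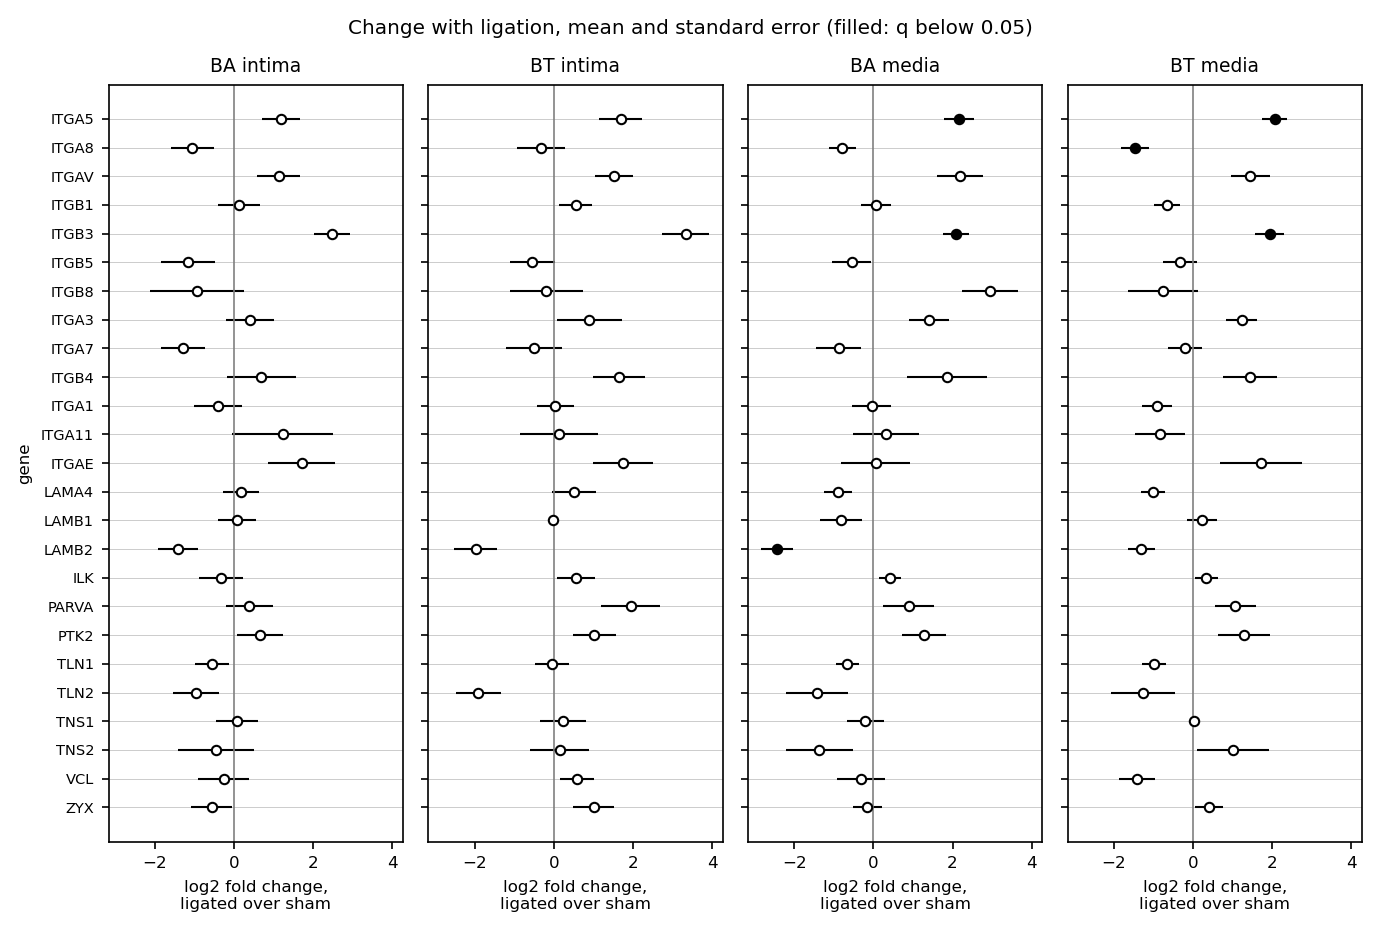
Log2 fold change of ligated over sham rabbits with its standard error from the edgeR fit, for the 25 members with a read in all 16 libraries that were tested at all 4 places. Filled circles passed q below 0.05, and no bar is drawn for LAMB1 in the BT intima and TNS1 in the BT media, whose changes were near 0. The filled circles are ITGA5 and ITGB3 in both media, LAMB2 in the BA media and ITGA8 in the BT media.

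Among the cytoplasmic proteins no member passed q below 0.05 with ligation at any place by the edgeR test over all 4 rabbits with the filter on low values, whereas DESeq2 called TLN1 and VCL in the BT media and TLN2 in the BT intima. PTK2, the focal adhesion kinase, had log2 fold changes of 0.66 and 1.02 in the intima and 1.27 and 1.29 in the media, each for the BA first. PARVA, the actin-binding partner of ILK, had 0.38, 1.94, 0.89 and 1.07 in that order. PXN, an adaptor at adhesions, was near the floor, with 3 counts in all in the sham BA media and 5 and 21 counts in the ligated BA media. ILK, a scaffold that joins integrin tails to PARVA, measured 1178 and 1482 CPM (sham) and 1543 and 1969 CPM (ligated) in the BA media and 982 and 1017 CPM (sham) and 1144 and 1356 CPM (ligated) in the BT media (log2 fold change 0.42 and 0.33, q = 0.54 and 0.608). Each ligated rabbit lay above each sham rabbit in both. With 2 rabbits per group this order can arise without an effect of ligation, and its share over all genes was not counted. In the intima the groups overlapped, with 1058 and 638 CPM (sham) and 397 and 957 CPM (ligated) in the BA and 567 and 419.7 CPM (sham) and 464 and 999 CPM (ligated) in the BT (log2 fold change -0.33 and 0.56).

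The laminin and collagen receptor subunits held no call with ligation by the same test, whereas DESeq2 called ITGA3 in the BT media and ITGA2 in the media and intima of the BT. ITGA3, an alpha subunit of a laminin receptor, measured 30.4 and 57.1 CPM (sham) and 83.9 and 145 CPM (ligated) in the BA media and 54.3 and 88.2 CPM (sham) and 176 and 157 CPM (ligated) in the BT media (1.41 ± 0.50 SE, q = 0.275 and 1.23 ± 0.39 SE, q = 0.136). Each ligated rabbit lay above each sham rabbit at both, an order whose share over all genes was not counted. ITGA7 went the other way in the BA intima, with 71.5 and 116 CPM (sham) and 30.6 and 45.9 CPM (ligated) (-1.29 ± 0.55 SE, q = 0.815), but in the media the groups overlapped. ITGA6, which pairs with ITGB4 or ITGB1, was low and scattered, from 0 to 22.4 CPM over the 16 libraries. Among the collagen receptor subunits ITGA11 ranged from 1.58 to 33.1 CPM and ITGA10 from 0 to 30.9 CPM, and the sham and ligated ranges overlapped in both.

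The 2 sham rabbits differed from each other in several abundant members. VCL was higher in rabbit 3 than in rabbit 4, 807 against 210.0 CPM in the BA media and 1162 against 395 CPM in the BT media. ITGA1, an alpha subunit of a collagen and laminin receptor of smooth muscle, was 962 against 356 CPM in the BA media and 1183 against 551 CPM in the BT media. In the BT intima rabbit 3 was instead the lower of the pair for both genes, with 153 against 243 CPM of VCL. ITGB4 and ITGB5 went the other way, and ITGB4 in the BA intima was 24.4 CPM in rabbit 3 and 216 CPM in rabbit 4.

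The leukocyte and platelet subunits were rare. Of 9 subunits with a read, 6 were tested somewhere. No ligation comparison called any of them by the edgeR test over all rabbits with the filter on low values. ITGAD had 33 counts in the sham BT intima of rabbit 3 and none elsewhere, and ITGAM (5.95 CPM) and ITGA4 (3.32 CPM) were higher there than in the other BT intima libraries. Among the BT intima libraries ITGB2, the beta subunit that pairs with ITGAD and ITGAM, was instead highest in ligated rabbit 6, at 8.98 CPM. There it measured 3.45 CPM in sham rabbit 3 and 0 in sham rabbit 4 and ligated rabbit 5. Its highest value in any library was 10.8 CPM, in the BT media of ligated rabbit 6. ITGB7, a partner of ITGA4 and ITGAE, was at 1.32 CPM in ligated rabbit 6 and 1.01 CPM in sham rabbit 3 in the BT intima. Over all libraries it was highest in the BA media of sham rabbit 4, at 8.34 CPM. The BT intima of sham rabbit 3 was the library with the most leukocyte and macrophage marker reads, led by AIF1 at 337 CPM. ITGAE, found on T cells that lie within epithelia, was the most regularly detected of them, with a read in all 16 libraries. Its median was 8.28 CPM in sham and 19.6 CPM in ligated libraries. The ranges, 0.871 to 12.3 CPM and 8.65 to 26.8 CPM, overlapped. Which cells its reads came from was not tested.

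Layers of the same rabbits were then compared, to see where in the wall each gene was expressed. With the BA and BT counts summed per rabbit and layer, 3 of the 38 members tested passed: ITGB4 and TLN2 were higher in the intima and LAMA2 was higher in the media. ITGB4, which pairs with ITGA6 in a laminin receptor, measured 31.9, 195, 192 and 335 CPM in the intima and 3.56, 21.6, 52.9 and 37.2 CPM in the media of rabbits 3, 4, 5 and 6 (log2 of intima over media 2.84 ± 0.29 SE, q = 0.00775). TLN2 measured 105, 61.2, 38.4 and 23.4 CPM in the intima and 16.4, 33.5, 14.6 and 6.1 CPM in the media (1.72 ± 0.35 SE, q = 0.0417). LAMA2 measured 133, 27.8, 32.2 and 22.7 CPM in the intima and 358, 359, 119 and 169.9 CPM in the media (-2.47 ± 0.39 SE, q = 0.0195). The difference had the same sign in all 4 rabbits for each of the 3, and also in each of the 8 pairs of intima and media from 1 rabbit and location. These genes were picked by this test, so the shared sign is not further evidence.

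Of all 9074 genes, 4.14% passed in this comparison, against 7.89% of the members. At an unadjusted p below 0.05, 5.26% of the members were higher in the intima and 23.7% higher in the media, against 10.9% and 8.52% of all genes. Without rabbit as a block only LAMA2 passed (q = 0.0297), and ITGB4 had q = 0.0543 and TLN2 q = 0.0581. With the 16 libraries paired by rabbit and location, 7 members passed, and LAMA2 did not (q = 0.0933). No member passed without sham rabbit 4 or without ligated rabbit 6, with q = 0.0698 and 0.0677 for ITGB4, and TLN2 also lost its call without rabbit 3 (q = 0.0686) or 5 (q = 0.0891).

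**Figure D5:**
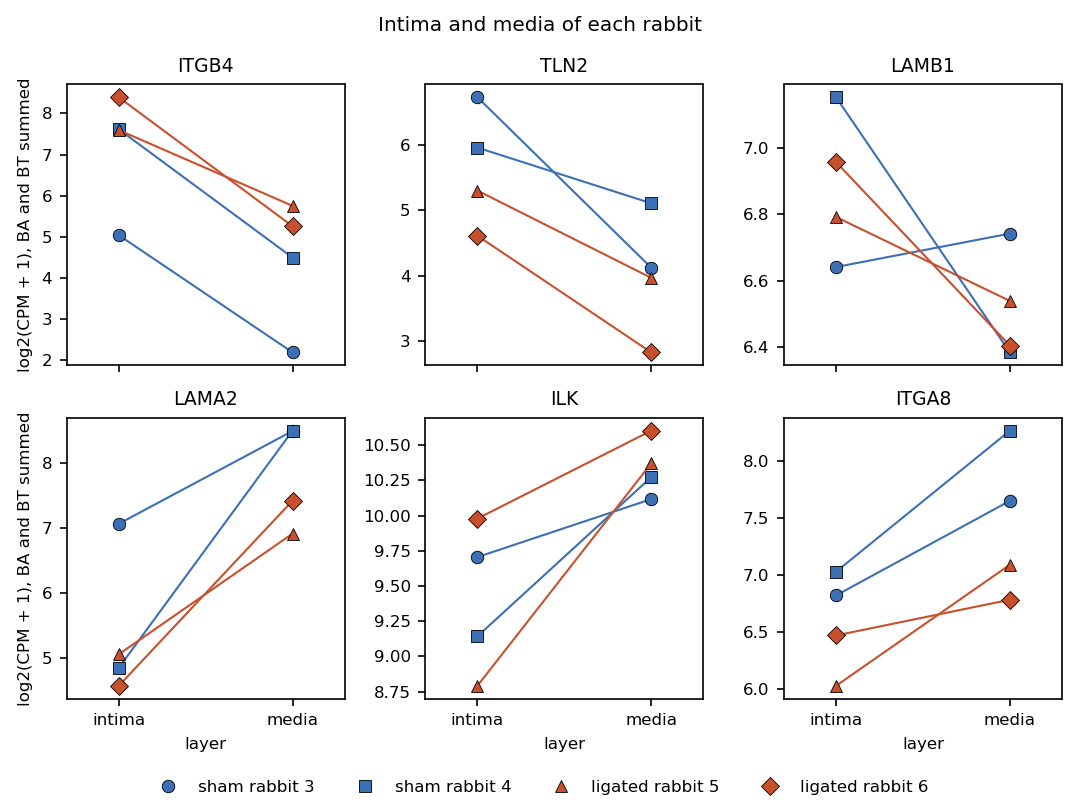
Expression of ITGB4, TLN2, LAMB1, LAMA2, ILK and ITGA8 in the intima and media of each rabbit, as log2(CPM + 1) of the BA and BT counts summed, with a line joining the layers of 1 rabbit. Each panel has its own vertical scale. All 4 lines fall from intima to media for ITGB4 and TLN2 and all 4 rise for LAMA2, ILK and ITGA8, whereas 1 of the 4 runs the other way for LAMB1.

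The next members in the media were ILK and ITGA8. ILK measured 834, 564, 442 and 1008 CPM in the intima and 1109, 1236, 1323 and 1554 CPM in the media (log2 of intima over media -0.94 ± 0.21 SE, q = 0.0591), and ITGA8 112, 129, 64.3 and 87.6 CPM and 199, 306, 135 and 109 CPM (-0.87 ± 0.20 SE, q = 0.0666). ITGA7, the alpha subunit of the muscle laminin receptor, stood at -1.27 ± 0.30 SE, q = 0.0687. On the intimal side LAMB1 came after ITGB4 and TLN2, but with 98.8, 141, 109.8 and 123 CPM against 106, 82.5, 92 and 83.7 CPM the layers overlapped (0.37 ± 0.21 SE, q = 0.39). Beside these genes, 7 of 12 tested endothelial markers passed the threshold as higher in the intima and 5 of 7 smooth muscle markers as higher in the media, among them CLDN5 (4.12 ± 0.38 SE, q = 0.005) and ACTA2 (-1.17 ± 0.20 SE, q = 0.0265). Of the 10 leptomeningeal and fibroblast markers, 8 had lower values in the intima than in the media, as LAMA2 did, and 2 had higher values. At p below 0.05, 5 were lower and 2 higher in the intima. PDGFRA alone passed q below 0.05 (-3.24 on the log2 scale). Of all genes, 8.52% were lower and 10.9% higher in the intima at p below 0.05, and 4.14% passed q below 0.05. The share of the differences among the members that comes with this mix of cells was not tested.

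Whether ligation changed the members differently in the layers was tested as an interaction, in which no gene passed (0% of 9569 genes by the edgeR quasi-likelihood test, and no member by DESeq2). The 2 members LAMA4 and ITGA5 were past an unadjusted p of 0.05, as were 3.4% of all genes. The change in LAMA4 was lower in the media than in the intima (-1.09 ± 0.31, SE), and that in ITGA5 was higher in the media (0.85 ± 0.32, SE). For ITGB3 the difference was -0.83 ± 0.43 (SE, q = 1). Calls of ITGB3 and ITGA5 in the media alone are therefore not shown to differ from the intima.

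The BT and the BA of the same rabbits were compared within each layer. In the intima 0.011% of 9131 genes passed and no member did, with 4 of 37 members and 3.83% of all genes past an unadjusted p of 0.05, and none by DESeq2. ITGA5 was the member with the smallest p, lower in the BT (log2 of BT over BA -0.74 ± 0.21 SE, q = 0.9996), and ITGA7 followed (-0.80 ± 0.32 SE, q = 0.9996). ITGA7 measured 71.5 and 116 CPM (sham) and 30.6 and 45.9 CPM (ligated) in the BA intima and 32.9 and 55.5 CPM (sham) and 14.3 and 48.7 CPM (ligated) in the BT intima. On the other side LAMB3, a beta chain of epithelial laminins, was at 0.282, 0.673, 0.213 and 0 CPM in the BA and 1.35, 3.51, 4.23 and 2.14 CPM in the BT of rabbits 3, 4, 5 and 6. ITGA4 was at 0 in the BA intima of rabbits 3, 5 and 6 and at 0.0747 CPM in rabbit 4, and measured 3.32, 0, 0.864 and 1.98 CPM in the BT. Both genes were too low for a fold.

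In the media 0.0227% of 8829 genes passed and again no member, with 6 of 38 members and 5.28% of all genes past an unadjusted p of 0.05, and no member by DESeq2. ITGB4 was at 2.54, 9.81, 33.8 and 10.7 CPM in the BA media and 6.97, 33.5, 62.3 and 48.7 CPM in the BT media of rabbits 3, 4, 5 and 6, higher in the BT in each rabbit (1.57 ± 0.45 SE, q = 0.554). ITGA10, an alpha subunit of a collagen receptor, was at 4.43, 1.47, 0 and 0 CPM in the BA and 16.3, 4.68, 4.99 and 13.8 CPM in the BT. ILK measured 1178, 1482, 1543 and 1969 CPM in the BA and 982, 1017, 1144 and 1356 CPM in the BT, lower in the BT in each rabbit (-0.45 ± 0.19 SE, q = 0.895), and LAMA1 53.3, 78.8, 21.6 and 5.5 CPM in the BA and 27.3, 61.9, 13.4 and 2.1 CPM in the BT (-0.83 ± 0.39 SE, q = 0.955).

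The change with ligation was compared between the BT and the BA as an interaction as well. In the intima 0% of 9641 genes passed, and 2 members, ZYX and LAMA3, and 3.44% of all genes were past an unadjusted p of 0.05, with no member by DESeq2. In the media 0.502% of 9368 genes passed, no member among them, while 7 of 38 members and 9.07% of all genes were past an unadjusted p of 0.05. VCL had the smallest p of the members, its change being more negative in the BT media (-1.16 ± 0.34 SE, q = 0.135), and DESeq2 called it. It measured 807, 210.0, 251 and 559 CPM in the BA media and 1162, 395, 219 and 355 CPM in the BT media. ITGB8 came next, with 4.34, 5.4, 31.1 and 43.2 CPM in the BA and 22.1, 8.71, 6.54 and 11.2 CPM in the BT (log2 difference -3.62, q = 0.224). For ITGA5 and ITGB3 the differences between locations were -0.15 ± 0.33 and -0.17 ± 0.39 (SE) in the media. LAMB2 and LAMA2 had less negative changes in the BT, by 1.11 and 1.14 on the log2 scale (q = 0.321 and 0.233).

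Around the members, a list of 53 further adaptors and regulators of adhesion was examined. In the BA media 39 of them were tested and 2 rose past q below 0.05, against 0.807% of all genes called in either direction. PDLIM5, a LIM and PDZ protein of actin stress fibres, went from 1235 and 1099 CPM in the sham to 5182 and 5475 CPM in the ligated rabbits (log2 fold change 2.21 ± 0.24 SE, q = 0.0162). ITGB1BP2, or melusin, which binds the tail of ITGB1, went from 56.6 and 94.1 CPM in the sham to 639 and 868 CPM in the ligated rabbits (3.34 ± 0.39 SE, q = 0.0176). In the BT media 38 were tested, and 4 rose and 1 fell, against 2.35% of all genes called. FLNC, a filamin of muscle, went from 11.9 and 11.6 CPM in the sham to 93.2 and 214 CPM in the ligated rabbits (3.72 ± 0.52 SE, q = 0.00402), and ACTN1, an actinin of stress fibres and adhesions, from 114 and 106 CPM in the sham to 462 and 372 CPM in the ligated rabbits (1.93 ± 0.32 SE, q = 0.0102). FHL3, a LIM-domain protein, measured 11.3 and 17.4 CPM (sham) and 85.4 and 77 CPM (ligated) (2.50 ± 0.52 SE, q = 0.0294) and ITGB1BP2 94.4 and 37.3 CPM (sham) and 291 and 323 CPM (ligated) (2.24 ± 0.44 SE, q = 0.0235). SORBS2, an adaptor that binds vinculin, fell from 7106 and 6602 CPM in the sham to 2508 and 2805 CPM in the ligated rabbits (-1.36 ± 0.28 SE, q = 0.0294). In the intima none passed, and the smallest p belonged to ITGB1BP2 (2.26 ± 0.56 SE, q = 0.542) and LIMS1, a partner of ILK (1.85 ± 0.46 SE, q = 0.549), in the BA and to DAB2, an endocytic adaptor (-3.02 ± 0.76 SE, q = 0.279), and FHL1, another LIM-domain protein (1.15 ± 0.41 SE, q = 0.374), in the BT.

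Of 42 ligands and basement membrane partners, 27 were tested in the BA media, where 2 rose and 2 fell. Of all genes, 0.807% passed there and 2.35% in the BT media. TNC, or tenascin-C, went from 1833 and 1810.3 CPM in the sham to 9334 and 7712 CPM in the ligated rabbits (2.24 ± 0.23 SE, q = 0.0123), and THBS1, or thrombospondin, from 1835 and 1230.1 CPM in the sham to 7235 and 4767 CPM in the ligated rabbits (1.98 ± 0.31 SE, q = 0.0372). COL3A1 fell from 6859 and 8196 CPM in the sham to 1898 and 2712 CPM in the ligated rabbits (-1.69 ± 0.26 SE, q = 0.0366) and COL1A2 from 3749 and 4103 CPM in the sham to 1190.4 and 1563 CPM in the ligated rabbits (-1.50 ± 0.26 SE, q = 0.0481), both chains of fibrillar collagens. In the BT media 28 were tested, TNC rose (1.87 ± 0.29 SE, q = 0.00691), and COL3A1 (-1.44 ± 0.29 SE, q = 0.0253) and CYR61, a secreted integrin ligand (-1.47 ± 0.33 SE, q = 0.0422), fell. THBS1 did not separate the flow groups there, with 2363 and 3080.1 CPM (sham) and 2356 and 3370.3 CPM (ligated). FN1, the fibronectin bound by ITGA5, measured 6407 and 5130.2 CPM (sham) and 8011 and 9296 CPM (ligated) in the BA media (0.60 ± 0.23 SE, q = 0.31). In the BT media FN1 overlapped, with 6894 and 8011 CPM (sham) and 7107 and 7336 CPM (ligated). In the BA intima each ligated rabbit lay above each sham rabbit in FN1, and in the BT intima the groups overlapped. The share of all genes with such an order was not counted. None of the ligands and partners passed in the intima. SPP1, or osteopontin, a ligand with an RGD motif, had the smallest p in the BA, where it measured 419 and 228 CPM without ligation and 13.1 and 24.5 CPM with ligation (-4.12 ± 0.59 SE, q = 0.208), followed by COL3A1 (-2.04 ± 0.49 SE, q = 0.486), and in the BT CYR61 (-3.06 ± 0.66 SE, q = 0.265) and NID2, a nidogen that links laminin to collagen IV and was at 0 in both ligated rabbits, stood first.

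Between layers, 7 of 39 tested adaptors and 7 of 27 tested ligands and partners passed as higher in the media, and 3 ligands and partners as higher in the intima. Of all 9074 genes, 4.14% passed in either direction. Among the adaptors, those higher in the media were FHL1, NEXN, FERMT2, SORBS2, PDLIM1, FLNC and PDLIM5. Their log2 ratios of intima over media ran from -2.42 to -0.82. Among the ligands and partners they were COL3A1, FBN1, COL1A2, DAG1, TNC, COL15A1 and COL4A1, from -1.73 to -0.88. VCAM1 (2.70 ± 0.25 SE, q = 0.00529), CD9 (1.89 ± 0.25 SE, q = 0.0112) and ICAM2 (4.01 ± 0.80 SE, q = 0.0413), membrane proteins that bind or associate with integrins, were higher in the intima.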

How the data were processed

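RNA from laser-microdissected intima and media was amplified as cDNA (SMART-Seq v4, Nextera, single reads). The authors aligned reads to the OryCun2.0 build (STAR), used those with a unique position, and counted them per gene (featureCounts 1.6.2), and the deposited values are raw counts without normalization. They counted with the reverse-stranded setting. The kit does not mark strand, so reads of 1 orientation only were counted, and overlapping antisense genes could not be told apart. The entry without a symbol (13.8% to 18.7% of counts) was left out. No gene lengths or sequences were used here. The gene of a marker list with the most reads is therefore named by reads, not by reads per length, and the levels of members are not ranked against each other.

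Counts were tested with the edgeR 4.0.16 quasi-likelihood F test (legacy form, R 4.3.3) with TMM scaling, in genes with a mean above 1 CPM in at least 1 group, with Benjamini-Hochberg q-values over all genes tested and a threshold of 0.05. Standard errors were derived from the F statistic. Ligated and sham rabbits were different animals and could not be paired. Layer and location comparisons kept the rabbit as a block, since both tissues came from the same animal. Deviations of such tissues from their group means correlated at 0.0697 to 0.409 between BA and BT and at -0.0305 to 0.221 between intima and media. Replicates differed beyond counting noise (chi-square per degree of freedom 18.6 to 414). Floors of 3 counts (95% limit for a count of 0) cover counting error only.

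The members and lists were chosen with earlier results of these data known. Members given by library were those past the threshold and, per comparison, those with the smallest p in each direction (2 for ligation and location, 3 for layers). Of the other lists, genes past the threshold and the 2 with the smallest p were named. FN1, PTK2, PARVA, PXN, TLN1, VCL, ZYX, ITGA1, ITGA2, ITGA3, ITGA6, ITGA11, ITGB1, ITGB5, ITGB8, the other laminin chains and the leukocyte, platelet and other marker genes were named after their values were seen. Alternatives were library size alone, RLE scaling, no filter, DESeq2 1.42.0, edgeR's version 4 form, each rabbit left out, and other blocks. The fits were tested on simulated data.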

Additional observations from a re-analysis of the deposited data

Results flagged for a closer look

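In the interaction of location with flow in the media, no integrin, laminin or focal adhesion gene passed q below 0.05. Of the lists around them, 3 of 39 tested adaptors and 3 of 28 tested ligands and partners did, against 0.502% of 9368 genes. All 6 had a change that was lower at the BT than in the BA. These were 3 adaptors, NEDD9 (-2.07 on the log2 scale), NEXN (-1.52 on the log2 scale) and PDLIM5 (-1.58 on the log2 scale), and 3 secreted ligands, NOV (-1.28 on the log2 scale), CTGF (-1.08 on the log2 scale) and THBS1 (-1.91 on the log2 scale), tested by the edgeR quasi-likelihood test over all genes. NEDD9, a docking protein of the Cas family, measured 158 and 141 CPM (sham) and 283 and 250.3 CPM (ligated) in the BA media and 320.4 and 359 CPM (sham) and 169 and 123 CPM (ligated) in the BT media, so it lay above the sham rabbits in the BA and below them at the BT. PDLIM5 measured 1235 and 1099 CPM (sham) and 5182 and 5475 CPM (ligated) in the BA media and 1678 and 2238 CPM (sham) and 2745 and 3241 CPM (ligated) in the BT media, higher with ligation at both. THBS1 measured 1835 and 1230.1 CPM (sham) and 7235 and 4767 CPM (ligated) in the BA media and 2363 and 3080.1 CPM (sham) and 2356 and 3370.3 CPM (ligated) in the BT media. Among cell markers, 3 of 10 leptomeningeal and fibroblast markers also passed in this interaction. Of these, 2 had a higher and 1 a lower change at the BT. Of 7 smooth muscle markers 2 passed, both with a lower change at the BT. The part of these cell markers in the differences above was not tested.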

How the results depend on the processing

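The number of members past the threshold was 0 and 0 with ligation in intima of BA and BT, 3 and 3 in media of BA and BT, and 3 between layers. Without the filter on low values it was 1, 2, 7, 8 and 5, and with DESeq2 1, 4, 7, 10 and 11. The version 4 form of edgeR called 0 in the BA media and 6 between layers. Leaving out 1 rabbit gave, in the same order, 0 to 2, 0 to 1, 0 to 0, 1 to 10 and 0 to 4 members. The extremes were 2 without rabbit 4 in the BA intima, 1 without rabbit 4 in the BT intima, 10 without rabbit 4 and 1 without rabbit 5 in the BT media, and 4 without rabbit 3 between layers. In the interaction of location with flow in the media the count of 0 became 1 with DESeq2 and 0 to 2 when 1 rabbit was left out, the highest without sham rabbit 4. Between layers, 1 member passed without the replicate block and 7 with a block of rabbit and location over 16 libraries, and the block changed no other count of members. The cause of these shifts was not tested. A comparison of flow groups without 1 rabbit has 1 animal in an arm, which is then assumed to vary like the other pair. Between layers, each rabbit that is left still holds both tissues. For members chosen by the threshold or the smallest p, no recomputed change with ligation, layer or location changed sign in these settings. Interactions and members named after their values were seen were not covered. Scaling by library size alone moved the median log2 fold change of all genes from -0.15 to -0.29 in the BA media, from 0.03 to 0.17 in the BT media and from 0.07 to 0.25 between layers. The shallowest library, a medial one, had 2154863 counts, so that members near 1 CPM rest there on a few reads.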
